A study of Mus musculus with 8 samples.

Results

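The 10 genes described here carry the main steps of antigen presentation by MHC class I in the mouse: H2-K1, H2-D1, B2m, Tap1, Tap2, Tapbp, Psmb8, Psmb9, Psmb10 and Nlrc5. They were chosen by symbol, as genes of 1 pathway, and each symbol occurred in the deposited table, so the members were 10 of 49585 listed genes. All 10 passed the filter on low values, as did 18170 genes in all. Class I molecules show peptides from inside a cell to CD8+ T cells. The proteasome cuts proteins into peptides, the TAP transporter moves the peptides into the endoplasmic reticulum, tapasin loads them, and a heavy chain paired with beta-2 microglobulin carries them to the surface. Interferon gamma is known to raise most of these genes, in part through the transactivator NLRC5. Nearly all nucleated cells present on class I, and macrophages of a plaque do so as well.

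RNA was sequenced from brachiocephalic arteries, the branch of the aortic arch where plaques form, of ApoE-deficient mice whose high-fat diet began at 12 weeks of age. In the 4 antibody samples the mice had received a blocking antibody to Dll1 (clone HMD1-5), a Notch ligand, at 250 micrograms into the peritoneum, 2 times per week. The 4 control samples came from mice given the same dose of non-immune IgG. Both groups thus share the ApoE deficiency and the diet, and neither a group with intact ApoE nor one on normal chow was analysed here. The labels do not say that the samples are separate animals, so the p-values measure only how far these samples spread, some of which may be technical. Each sample is a piece of vessel wall with mixed cells. Fewer cells of a type and less RNA per cell cannot be told apart in such samples, in any result below.

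The libraries fell into 2 sets, named in the table by the numbers 045 and 076, whose meaning the sources used here do not give. In set 045 the IgG libraries are C1IA and C2IA, and D1IA and D2IA are the antibody libraries. In set 076, G1IA and G2IA are IgG, and the antibody libraries are again named D1IA and D2IA. Protein-coding genes took 0.848% to 3.10% of the deposited TPM in set 045 and 21.2% to 24.2% in set 076. Reads on protein-coding genes, recovered from the steps of the TPM values, numbered 663099 to 2729071 per library in set 045 and 7422343 to 8070921 in set 076. Counting error was therefore larger in set 045: Psmb9 rested on 25 to 48 reads per library there and on 74 to 92 in set 076. Because of the unequal protein-coding share, levels are given after rescaling so that protein-coding genes of the nucleus sum to 1000000 in each library (the protein-coding scale). Libraries C1IA and D2IA of set 045 also stand apart by Xist, an RNA of the inactive X chromosome, at 4.46 and 5.44 TPM against at most 0.0342 TPM in the other 6. The artery's own markers were present: the 7 smooth muscle markers were above 0 in all 8 libraries, and their summed level was 555 to 959 in set 045 and 3577 to 4587 in set 076.

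Promoters of H2-K1, H2-D1, B2m, Tap1 and Psmb9 are shown with the short motifs known from class I promoters. These genes are known to share control elements. The sequences are from RefSeq on build GRCm38.p6, and 8 of the 10 members matched its promoter table. Tap2 and Nlrc5 did not. Capitals mark the letters GAANNGAAA, or GAAA repeated after a gap of 2 bases (both bound by interferon regulatory factors), GGG followed by CCC after a gap of 5 bases (an NF-kB type site), TGACG (the X2 type box, a CREB/ATF site) and CCAAT (the Y type box, an NF-Y site), each searched on both strands. No marked motif overlaps another. H2-K1 is shown on the minus strand at chr17:34000348-34000547, H2-D1 on the plus strand at chr17:35262894-35263093 and B2m on the plus strand at chr2:122147487-122147686, in each case 200 bases that end just before the RefSeq start. Tap1 and Psmb9 lie head to head, and the 225 bases between their RefSeq starts, chr17:34187331-34187555, are shown on the strand of Tap1.
H2-K1: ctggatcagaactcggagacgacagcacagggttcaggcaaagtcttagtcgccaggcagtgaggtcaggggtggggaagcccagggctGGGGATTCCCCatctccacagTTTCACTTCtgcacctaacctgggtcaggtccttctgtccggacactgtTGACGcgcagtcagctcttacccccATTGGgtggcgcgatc
H2-D1: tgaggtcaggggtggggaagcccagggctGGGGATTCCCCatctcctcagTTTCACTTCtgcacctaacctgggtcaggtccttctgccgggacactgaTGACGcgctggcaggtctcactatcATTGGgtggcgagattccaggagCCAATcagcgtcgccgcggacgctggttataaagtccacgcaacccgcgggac
B2m: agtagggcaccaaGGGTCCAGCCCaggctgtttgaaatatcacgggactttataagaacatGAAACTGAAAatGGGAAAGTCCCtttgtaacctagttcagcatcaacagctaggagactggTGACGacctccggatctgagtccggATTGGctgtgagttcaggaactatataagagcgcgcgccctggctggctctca
Tap1 and Psmb9 shared: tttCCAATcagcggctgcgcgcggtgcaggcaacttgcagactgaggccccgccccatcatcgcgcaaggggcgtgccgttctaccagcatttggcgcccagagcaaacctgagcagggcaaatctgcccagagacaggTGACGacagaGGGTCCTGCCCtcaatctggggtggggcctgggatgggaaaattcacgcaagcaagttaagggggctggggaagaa

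TGACG and CCAAT occurred together in the 250 bases before the start in 5 of the 8 matched members: H2-K1, H2-D1, B2m, Tap1 and Psmb9. Both were found in 6.12% of the 32851 RefSeq promoter windows of the same length. These windows belong to 27025 genes, so a gene can count more than once in that share. Members were counted by 1 window each, and of the 2 windows of H2-K1 the first listed was used. Alone, TGACG was found in 17.8% and CCAAT in 33.8% of windows. The Tapbp window held CCAAT at 2 positions and no other motif of the search, and the windows of Psmb8 and Psmb10 held none. GAANNGAAA, present in 6.31% of windows, was found in H2-K1 and H2-D1. B2m held the repeated GAAA, present in 2.98% of windows. GGG with CCC after 5 bases, present in 12.2% of windows, occurred 1 time in H2-K1, H2-D1, Tap1 and Psmb9 and 2 times in B2m. In GENCODE M21 (GRCm38) 7 members lie on chromosome 17, B2m on chromosome 2 and Psmb10 and Nlrc5 on chromosome 8. There B2m overlaps Patl2 and Tap1 overlaps Psmb9 on opposite strands, and Tapbp overlaps Zbtb22 on the same strand. Tap2, Tapbp, Psmb8, Psmb10 and Nlrc5 also overlap non-coding genes. Whether the authors' counting used strand is not stated, so reads in these overlaps are uncertain. Tap1 and Psmb9 share their motif counts because they share the stretch. A match is a description of letters and not evidence of a bound site.

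The 10 genes covered a wide range of levels, and their order was much the same in both sets except at the top. Lengths enter each level as the union of a gene's exons, so the order between genes depends on how many of those exons the artery's transcripts use. In set 045 (n = 4), H2-D1 at 1168 ± 164 (mean ± SD) and B2m at 1050 ± 243 led with overlapping ranges. H2-K1 at 468 ± 55.9 and Tapbp at 251 ± 34.6 followed, each clear of its neighbours. Psmb10, Tap2, Psmb8, Nlrc5, Tap1 and Psmb9 came last, from 91.4 ± 39.0 to 25.4 ± 15.4, and each overlapped the next. In set 076 (n = 4), B2m led alone at 3348 ± 507, ahead of H2-D1 at 863 ± 234, H2-K1 at 402 ± 62.1 and Tapbp at 160 ± 35.9. Psmb10, Psmb8 and Tap2 lay between 42.5 ± 7.65 and 29.4 ± 5.00, and Tap1, Nlrc5 and Psmb9 between 14.4 ± 4.39 and 9.61 ± 1.48. Among 21721 protein-coding genes ordered by level, B2m ranked from 48 to 118 in set 045 and from 16 to 21 in set 076.

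**Figure D1:**
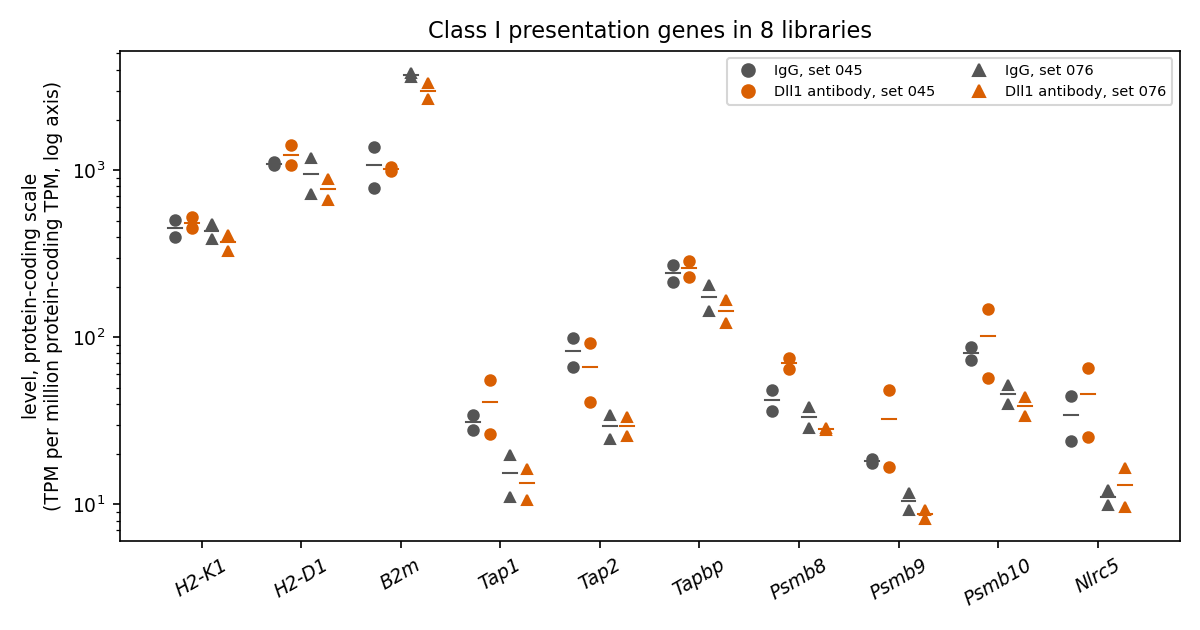
Level of each of the 10 genes on the protein-coding scale (log axis) in the 8 libraries. Circles are set 045 and triangles set 076, grey is IgG and orange the Dll1 antibody, and short bars are means of 2 libraries. B2m lies between 2656 and 3818 in set 076, above all libraries of set 045, and Nlrc5, Tap1 and Tap2 lie lower in set 076 than in set 045.

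The first comparison asked what blocking Dll1 did to class I presentation genes in the artery. No member passed the test for the antibody against IgG, with limma on log2(level + 1), the library set as a term and Benjamini-Hochberg adjustment over all genes (threshold 0.05). No gene of the 18170 passed it either, so the background called was 0%, with 278 genes at an unadjusted p under 0.05 and none of the members among them. The adjusted p was 1.00 for each member. Of the 10 log2 fold changes 4 were positive and 6 negative, from -0.19 to 0.25, with a median of -0.04 against -0.07 over all genes tested. On the TPM as deposited all 10 were negative, with a median of -0.32 against -0.11, and none was called. There too 1 was added before the log, which shrinks the differences of genes with low TPM. The TPM medians of the members and of all genes are therefore not comparable. The values by role follow.

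The heavy chains H2-K1 and H2-D1 are the classical class I molecules that hold the peptide. H2-K1 (chromosome 17, GRCm38) stood at 398 and 504 in the IgG libraries C1IA and C2IA of set 045 and at 522 and 449 in D1IA and D2IA. It stood at 480 and 387 in G1IA and G2IA of set 076 and at 330 and 411 in its antibody libraries. The groups overlapped in both sets, and the log2 fold change was -0.06 ± 0.21 (SE), with a 95% interval of -0.54 to 0.43. H2-D1 (chromosome 17) measured 1113 and 1075 under IgG in set 045, against 1069 and 1412 under the antibody. The set 076 values were 1185 and 726 under IgG, against 659 and 882 under the antibody. Again the groups overlapped in both sets, and the log2 fold change was -0.06 ± 0.26 (SE; 95% interval -0.65 to 0.53). Both genes have close relatives in the H2 complex, and how the authors' counting split reads among such copies is not given, so these levels are uncertain to that extent.

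B2m encodes beta-2 microglobulin, the light chain that every class I heavy chain needs. Its levels in set 045 were 787 and 1374 under IgG, against 1049 and 990 under the antibody. In set 076 they were 3610 and 3818 under IgG, against 3307 and 2656 under the antibody, so both antibody libraries lay below both IgG libraries there. The same held for 11% of all genes tested in set 076, and for B2m and Psmb9 among the members. No member was higher in both antibody libraries of set 076, as 7.99% of all genes were, or lower in both of set 045, as 20.8% were. Over both sets the log2 fold change was -0.18 ± 0.26 (SE; 95% interval -0.76 to 0.40). It ran from -0.37 without C1IA to -0.0462 without C2IA of set 045.

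Tap1 and Tap2 form the peptide transporter, and Tapbp encodes tapasin, which bridges the transporter and the empty heavy chain. Tap1 measured 27.7 and 34.1 under IgG, against 55.2 and 26.4 under the antibody in set 045. The corresponding levels in set 076 were 19.7 and 11.1 under IgG, against 10.6 and 16.3 under the antibody. Library D1IA was the highest of set 045 and the other antibody library of that set the lowest. Tap2 measured 66.3 and 98.4 under IgG, against 92.4 and 40.8 under the antibody in set 045, and its set 076 levels were 34.2 and 24.7 against 25.5 and 33.2. Tapbp measured 215 and 272 under IgG, against 288 and 229 under the antibody in set 045, and 205 and 144 against 121 and 167 in set 076. For all 3 genes the groups overlapped in both sets. The log2 fold changes were 0.07 ± 0.32 (SE; 95% interval -0.65 to 0.80) for Tap1, -0.19 ± 0.30 (-0.87 to 0.48) for Tap2 and -0.09 ± 0.23 (-0.61 to 0.42) for Tapbp.

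Psmb8, Psmb9 and Psmb10 encode the 3 catalytic subunits that replace Psmb5, Psmb6 and Psmb7 in the immunoproteasome, which changes the peptides that are cut. Psmb8 stood at 36.1 and 48.1 in C1IA and C2IA of set 045, against 64.8 and 75.1 in D1IA and D2IA, on 34 to 93 reads. Here both antibody libraries lay above both IgG libraries, as they did for 14.2% of all genes tested in set 045, and Psmb8 was the only member of which this was true. On the TPM as deposited the groups overlapped, at 0.615 and 1.49 against 0.550 and 1.32. In set 076 Psmb8 measured 38.4 and 28.6 under IgG, against 28.7 and 27.9 under the antibody. The groups overlapped there, and library G1IA was the high one. Psmb9 measured 17.8 and 18.6 under IgG, against 48.4 and 16.7 under the antibody in set 045, so a single library, D1IA, lay far above the other 3. Its 34 reads allow 33.5 to 67.7 (exact Poisson 95% interval, counting error only), above the interval of 10.8 to 24.7 for D2IA. On the TPM as deposited Psmb9 in D1IA was at 0.411, within the 0.295 to 0.575 of set 045. The high level of D1IA thus depends on the rescaling, which the interval does not cover. In set 076 Psmb9 was at 11.7 and 9.31 under IgG, against 8.23 and 9.20 under the antibody, without overlap. Psmb10 measured 73.5 and 88.0 under IgG, against 147 and 57.4 under the antibody in set 045, and 52.1 and 39.9 against 33.9 and 44.0 in set 076, and its groups overlapped in both. Over both sets the log2 fold changes were 0.25 ± 0.25 (SE; 95% interval -0.32 to 0.83) for Psmb8, 0.19 ± 0.37 (-0.64 to 1.03) for Psmb9 and -0.02 ± 0.30 (-0.71 to 0.67) for Psmb10. Without library D1IA of set 045 that of Psmb9 was -0.19. That of Psmb8 ran from 0.0787 without C1IA of set 045 to 0.43 without G1IA of set 076.

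Nlrc5 is the transactivator that class I genes depend on for much of their transcription. Its levels in set 045 were 24.1 and 44.3 under IgG, against 65.7 and 25.3 under the antibody. Those of set 076 were 12.3 and 9.90 under IgG, against 9.63 and 16.6 under the antibody. The groups overlapped in both sets, and the log2 fold change was 0.25 ± 0.35 (SE; 95% interval -0.56 to 1.06). Without library D1IA of set 045 it was -0.03. For the members as a whole the 95% intervals reached from -0.87 to 1.06 on the log2 scale, so the failure to pass the test does not show that the groups were alike.

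On the protein-coding scale the signs differed between the sets. In set 045, 8 of the 10 log2 fold changes were positive, with a median of 0.18 against -0.13 over all genes tested, and no member and no gene was called (0%, 793 genes at an unadjusted p under 0.05). In set 076, 8 of the 10 were negative, with a median of -0.23 against 0.00 over all genes. No member was called in set 076, where 3 genes were (0.0165%). With median-of-ratios scaling 9 of 10 were positive in set 045 and 9 of 10 negative in set 076. On the TPM as deposited all 10 were negative in set 045 (median -0.56 against -0.23 over all genes) and 8 were negative in set 076, so the positive signs in set 045 rest on the rescaling. The 1 added before the log shrinks the differences of genes with low TPM. Those medians therefore do not show that the members fell more than other genes. The difference of the treatment effect between the sets was tested with an interaction term, and no member passed it, in a background of 0% called and 924 genes at an unadjusted p under 0.05. Psmb8 had the smallest p of the members, with a difference of -0.95 ± 0.40 (SE; set 076 minus set 045), an unadjusted p of 0.0491 and an adjusted p of 0.798 by limma.

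**Figure D2:**
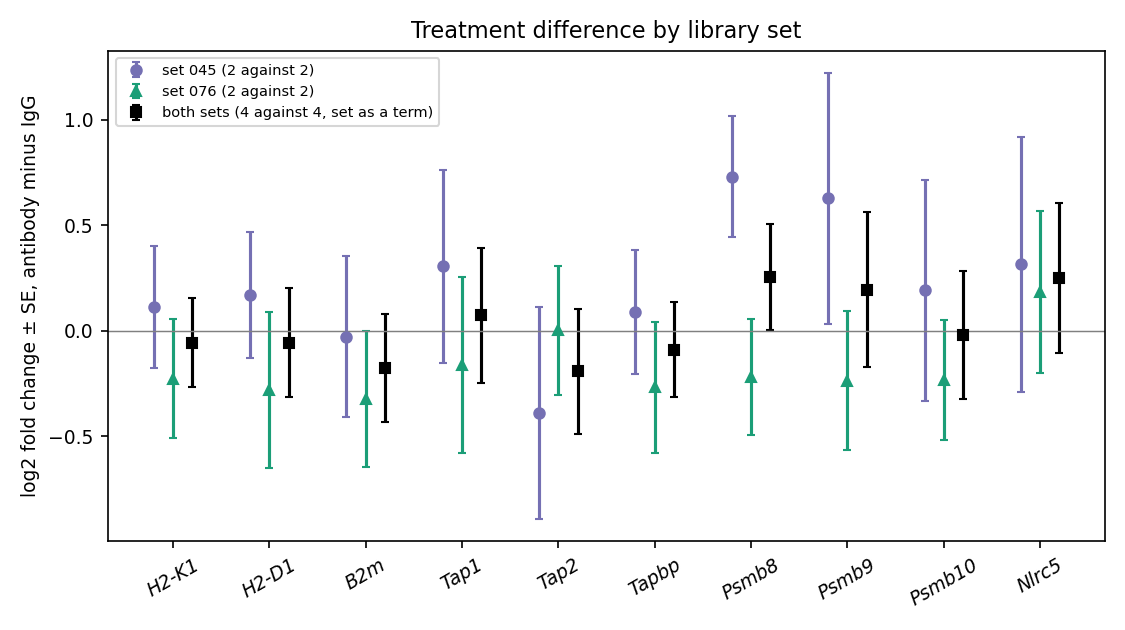
Log2 fold change ± SE of each gene, antibody minus IgG, by limma in set 045 (circles, 2 libraries against 2), in set 076 (triangles, 2 against 2) and over both sets with the set as a term (squares, 4 against 4). The values over both sets lie between -0.19 and 0.25, and none of them passed the test.

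Markers of several cell types, though not of all, took the same signs as the members on the protein-coding scale: positive in set 045 and negative in set 076. In set 045 the summed level of the 8 macrophage markers was 9378 and 5278 under IgG, against 9082 and 12898 under the antibody, and in set 076 it was 12998 and 5967 under IgG, against 6517 and 8722 under the antibody. The log2 fold changes of the 8 markers were all positive in set 045, with a median of 0.60, and 7 of 8 were negative in set 076, with a median of -0.23. On the TPM as deposited all 8 were negative in set 045 as well. The 5 pan-leukocyte markers summed to 635 and 515 under IgG, against 792 and 1122 under the antibody in set 045, and to 1165 and 457 against 546 and 774 in set 076. The 8 markers of blood endothelium summed to 624 and 867 under IgG and to 1279 and 924 under the antibody in set 045, and to 878 and 819 against 556 and 745 in set 076. The endothelial sums of the groups overlapped in neither set, and 7 of 8 endothelial markers were positive in set 045 and 8 of 8 negative in set 076. Of single genes tested, 14.2% were higher under the antibody without overlap in set 045, and 11% were lower without overlap in set 076. Of the smooth muscle markers 6 of 7 were positive in set 045 and 5 of 7 negative in set 076, and of 7 fibroblast markers 4 were positive and 5 negative. The positive signs in set 045 were mostly lost on the TPM as deposited. There 1 of 8 endothelial, 0 of 7 smooth muscle, 1 of 7 fibroblast and 1 of 5 pan-leukocyte markers were positive in that set. Other lists did not follow the members' signs on the protein-coding scale. T cell markers were positive in 4 of 8 and then in 7 of 8 cases, dendritic cell markers in 3 and then in 4 of 6, and B and plasma cell markers were negative in 7 and then in 8 of 8. The 6 NK cell markers summed to at most 11.0, and the library D1IA of set 045 had all 6 at 0. The 8 T cell markers summed to 12.1 to 20.1 in set 045 and to 10.9 to 160 in set 076. B and plasma cell markers, 8 in number, were at 8334 and 12679 in the IgG libraries of set 076 against 516 and 906 in its antibody libraries, and at 150 to 1392 in set 045. Skeletal muscle markers, also 8, were at 4921 and 387 in the antibody libraries of set 076 and at 112 and 11.2 in its IgG libraries. Summed fibroblast markers ran from 3005 to 8744 in set 045 and from 6583 to 12227 in set 076, and those of adipocytes from 331 to 2026 and from 1725 to 3600. Markers of dendritic cells summed to 73.5 to 266 over all libraries, of lymphatic endothelium to 85.5 to 289 and of cortical thymic epithelium to 8.46 to 29.5. Immature thymocyte markers summed to 31.8 to 58.8 in set 045 and to 92.1 to 282 in set 076. The highest of these sums in set 045, that of D1IA, came from 1 of the 6 markers, as the others were at 0. As few as 2 of the 5 cortical thymic epithelium markers were above 0 in set 045. Cd1d1, counted among the thymocyte markers, is also among the other class I heavy chains listed below. Markers of parathyroid and thyroid summed to 934 in D1IA of set 076 and to at most 17.5 in the other 7 libraries. The part of these cell types in the values of the 10 genes was not tested.

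A ratio within a library needs no scaling between libraries, and the 3 pairs of immunoproteasome and constitutive subunits were compared in this way. In set 045 the ratio of Psmb8 to Psmb5, in TPM, was 0.0939 and 0.115 under IgG, against 0.246 and 0.281 under the antibody. In set 076 it was 0.161 and 0.111 under IgG, against 0.111 and 0.0830 under the antibody. The antibody libraries were thus the higher in set 045 and were not in set 076. Psmb5 itself was lower in the antibody libraries of set 045, at 263 and 267 against 384 and 418 on the protein-coding scale. Over both sets the mean log2 ratio, taken after 1 was added to each level, differed by 0.43 between antibody (-2.62 ± 0.84 SD, n = 4) and IgG (-3.05 ± 0.32 SD, n = 4). The exact two-sided permutation test within sets gave p = 0.278, or 0.833 after Benjamini-Hochberg adjustment over the 3 pairs. The smallest p that its 36 assignments allow is 0.0556, so this design could not reach the threshold of 0.05.

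The ratio of Psmb9 to Psmb6 was 0.0927 and 0.143 under IgG, against 0.483 and 0.131 under the antibody in set 045. All libraries of set 076 lay lower, at 0.0574 and 0.0464 under IgG, against 0.0417 and 0.0435 under the antibody. The antibody difference in mean log2 ratio was 0.42 with an exact permutation p of 0.722 (adjusted p = 1), and it was -0.03 without library D1IA of set 045, where Psmb6 rested on 36 reads. Psmb10 relative to Psmb7 stood at 0.966 and 0.989 under IgG, against 1.75 and 0.819 under the antibody in set 045. In set 076 it stood at 0.487 and 0.275 under IgG, against 0.250 and 0.333 under the antibody. The difference for this pair was -0.02, with an exact permutation p of 1 (adjusted p = 1).

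**Figure D3:**
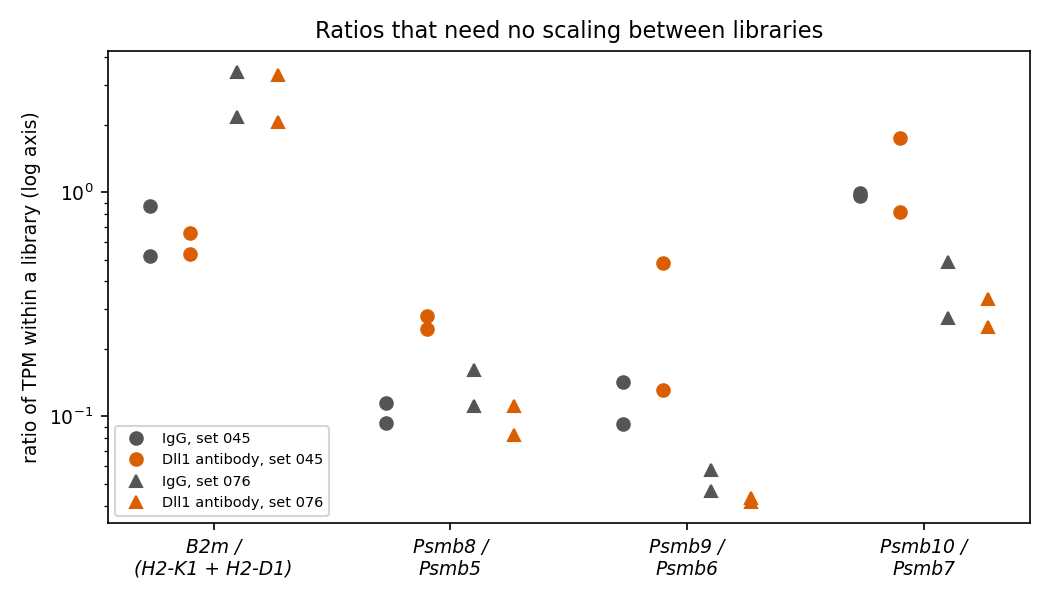
Ratios of TPM within a library (log axis) for B2m over the sum of H2-K1 and H2-D1 and for the 3 immunoproteasome subunits over their constitutive counterparts, 1 point per library. Circles are set 045 and triangles set 076, grey is IgG and orange the antibody. B2m over the heavy chains lies between 0.521 and 0.870 in set 045 and between 2.05 and 3.43 in set 076.

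The larger difference for these genes lay between the library sets. On the protein-coding scale B2m was higher in set 076 than in set 045, and Nlrc5, Tap2 and Tap1 were lower (limma with treatment as a term, adjusted p under 0.05). The background called in this comparison was 9.52% of genes, 2.67% higher and 6.84% lower, and the median over all genes was -0.27, against -0.91 over the members. B2m was 3.22-fold higher in set 076, at a log2 difference of 1.69 ± 0.26 (SE; adjusted p = 0.0121). Every library of set 076 lay above every library of set 045. On the shift of -0.27 in all genes, Nlrc5 was lower by a log2 difference of -1.55 ± 0.35 (adjusted p = 0.0349), Tap2 by -1.25 ± 0.30 (adjusted p = 0.0385) and Tap1 by -1.24 ± 0.32 (adjusted p = 0.0466). The other 6 members did not pass, with log2 differences of -1.18 for Psmb9, -1.02 for Psmb10, -0.80 for Psmb8, -0.67 for Tapbp, -0.46 for H2-D1 and -0.22 for H2-K1 and adjusted p from 0.0704 to 0.513. The 4 libraries of set 076 lay below all 4 of set 045 for Tap1, Tap2, Tapbp, Psmb9, Psmb10 and Nlrc5, as they did for 14.6% of all genes, and above them for B2m, as for 6.41%.

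These directions hold on the protein-coding scale. On the TPM as deposited all 10 members were higher in set 076, with B2m up by a log2 difference of 5.33. The median was 2.03 over the members and 1.55 over the 18170 genes. Here too 1 was added before the log, which shrinks the differences of genes with low TPM. Nlrc5, for example, was at 0.411 to 1.37 TPM in set 045. The medians therefore do not show that the members rose more than other genes. With median-of-ratios scaling, B2m alone was called. The members' calls also rested on single libraries: 1 member passed without C1IA or without C2IA of set 045, 2 passed without G1IA of set 076, and none passed without G2IA or without D1IA of set 076. B2m itself was called under 15 of 18 alternatives, and its adjusted p was at most 0.0598 in the other 3. The ratio of B2m to the sum of H2-K1 and H2-D1, which no scaling touches, lay between 0.521 and 0.870 in set 045 and between 2.05 and 3.43 in set 076, with no overlap. By contrast the ratio of H2-K1 to H2-D1 overlapped between the sets, at 0.318 to 0.488 and 0.405 to 0.534, and so did that of Tap1 to Tap2, at 0.347 to 0.647 and 0.414 to 0.576.

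The difference between the sets went with gene length. The median log2 difference was 0.29 over 584 protein-coding genes with exons of at most 1000 bases in all and -0.41 over 3706 above 6000 bases. B2m, with 860 bases, is in the shortest class and stood at percentile 89.0 of it. Nlrc5, with 8493 bases, is in the longest and stood at percentile 7.77 of that class. Tap2, with 3781 bases, and Tap1, with 5476 bases, stood at percentiles 10.5 and 13.7 of theirs. Within their classes B2m was therefore still among the higher genes and Nlrc5, Tap2 and Tap1 among the lower ones. Psmb10, the shortest of the subunits at 1705 bases, stood at percentile 12.6 of its class. The part of length, of cell composition and of depth in these differences was not tested.

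**Figure D4:**
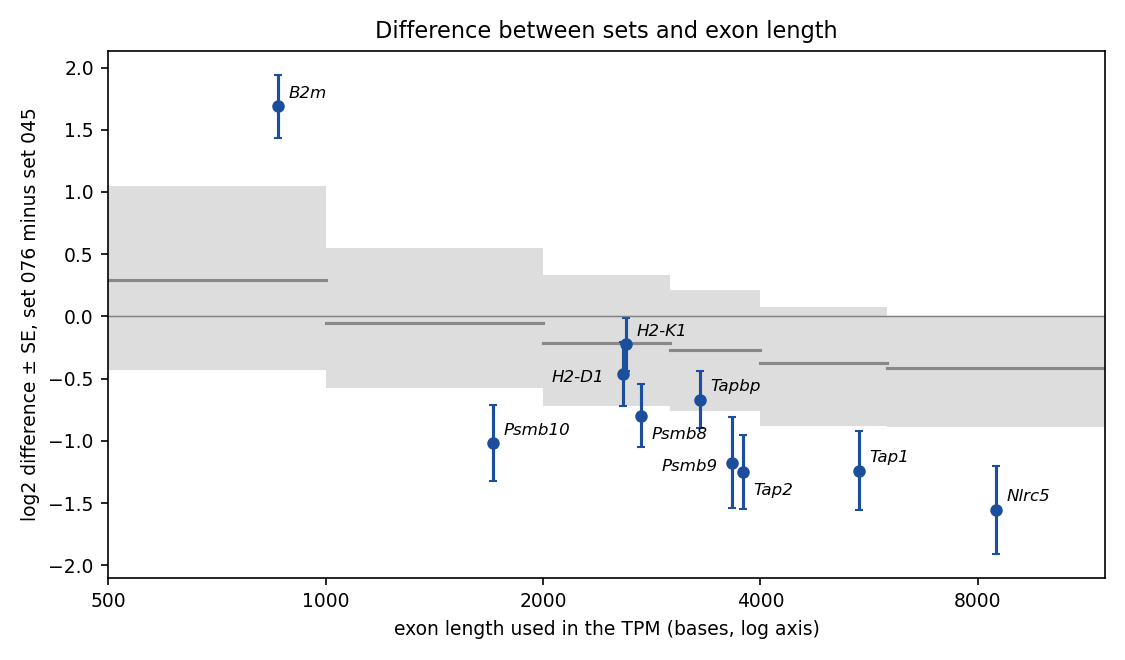
Log2 difference ± SE between the library sets (set 076 minus set 045, protein-coding scale) of each gene against its exon length in bases (log axis). Grey lines are medians and grey bands the middle 50% of all tested protein-coding genes in 6 length classes. B2m lies above the band of its class, and Tap1, Tap2, Psmb8, Psmb9, Psmb10 and Nlrc5 lie below theirs.

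The members differed in how closely they followed each other across libraries. After the mean of each set was removed, the mean profile of the 10 genes was highest in D1IA of set 045 (0.42 on the log2 scale) and in G1IA of set 076 (0.29), an antibody library and an IgG library. It was lowest in C1IA of set 045 (-0.30) and D1IA of set 076 (-0.24). Tapbp and H2-K1 lay closest to this mean, at root mean square distances of 0.107 and 0.116 over the 8 libraries. H2-D1 (0.296), Psmb8 (0.293) and B2m (0.281) lay farthest. H2-D1 was below its set mean in D1IA of set 045 (-0.12), where Psmb9 (1.05), Nlrc5 (0.83) and Psmb10 (0.77) were highest. That library had the fewest protein-coding reads, 663099, and the lowest protein-coding share of the TPM, 0.848%. On the TPM as deposited its Psmb9, Nlrc5 and Psmb10 were below those of C2IA of set 045.

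The genes most like this mean profile, of 11002 protein-coding genes compared, were Mospd2 (distance 0.0604), Tapbpl (0.0663), Mau2 (0.0741), Amotl1 (0.0747) and Ankrd16 (0.0790). The median distance over all genes compared was 0.398. Tapbpl encodes a tapasin-related protein that edits peptides on class I molecules. Its profile was -0.24 and -0.05 in C1IA and C2IA and 0.51 and -0.22 in D1IA and D2IA of set 045, and 0.26, -0.05, -0.27 and 0.06 in G1IA, G2IA, D1IA and D2IA of set 076. This likeness rests on 8 libraries that share their normalisation, and the closest of 11002 genes will be close in part by chance.

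**Figure D5:**
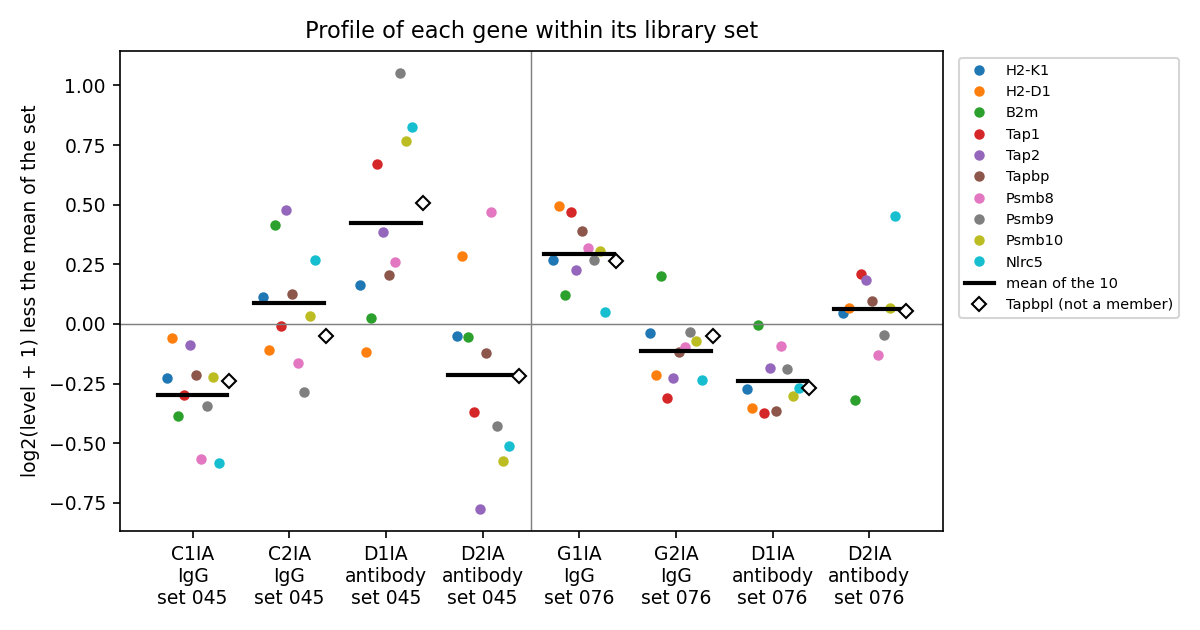
Log2(level + 1) less the mean of the library set for each of the 10 genes (coloured points), their mean (black bars) and Tapbpl (open diamonds) in the 8 libraries. The mean is highest in the antibody library D1IA of set 045 (0.42) and in the IgG library G1IA of set 076 (0.29), and the points spread widest in set 045.

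Other genes of the pathway were read from lists, and no gene of any list passed the test for the antibody against IgG (background 0%). The signs given are those on the protein-coding scale; on the TPM as deposited 13645 of the 18170 genes were negative, and so were 13 of the 14 heavy chains, all 11 loading genes, all 11 core subunits and 7 of the 9 activators and assembly factors. Of 17 other class I heavy chains, among them the non-classical H2-Q, H2-T and H2-M genes, 14 were tested, with 6 positive and 8 negative log2 fold changes and a median of -0.08. H2-T10 had the smallest p, at -0.93 ± 0.37 (SE; unadjusted p = 0.0330, adjusted p = 1.00 by limma), followed by H2-Q10 at -0.81 and H2-M3, which presents formylated peptides, at -0.37. H2-T24 was at 0.41. Among 11 genes of peptide loading and trimming 9 were negative, with a median of -0.24, from Bcap29 at -0.52, Lnpep at -0.46, Bcap31 at -0.33 and Pdia3, a partner of tapasin, at -0.24. By set, 10 of these 11 were negative in set 045 (median -0.40) and 5 in set 076 (median 0.02). The 3 constitutive catalytic subunits had values of -0.23 for Psmb6, -0.17 for Psmb5 and 0.00 for Psmb7. All 3 were negative in set 045 and positive in set 076. The other 11 core subunits had a median of 0.03, and 6 of them were positive. In that list Psma3 was at -0.26, Psma4 at 0.29, Psmb4 at -0.19 and Psma1 at -0.16. Of 9 proteasome activators and assembly factors 8 were positive, with a median of 0.13, Psmg4 at 0.56, Psmg3 at 0.46, Psme3 at 0.13 and Psme4 at -0.16.

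Genes of the interferon gamma list were mostly positive in set 045 and mostly negative in set 076 on the protein-coding scale, as the members were. In set 045, 15 of 18 tested genes of the interferon gamma list were positive (median 0.63), and in set 076, 15 of 18 were negative (median -0.28). On the TPM as deposited 14 of 18 were negative in each set. Cxcl9, a chemokine that interferon gamma induces, was at 1.81 in set 045 and at -0.59 in set 076, and Igtp, an interferon-induced GTPase, at 0.93 and -0.11. Socs1, a feedback inhibitor, was at 0.45 and 0.53, and Ifngr1, a chain of the receptor, at -0.45 and -0.11. Of 17 regulators of class I transcription 10 were positive in set 045 (median 0.17) and 5 in set 076 (median -0.06). Over both sets 12 were positive (median 0.09), and 1 was on the TPM as deposited. On the protein-coding scale the values of smallest p were those of Ciita, the class II transactivator, at 0.57, Irf8 at 0.40, Atf1 at 0.35 and Rela at 0.19. For MHC class II, which presents peptides from outside the cell to CD4+ T cells, 7 of 8 tested genes were positive in the fit over both sets, with a median of 0.42, and 5 of 8 were on the TPM as deposited. H2-Aa was at 0.44 ± 0.21 (SE; unadjusted p = 0.0672), H2-DMa at 0.61, Cd74, the invariant chain, at 0.46 and H2-Ab1 at 0.39, and each of these 4 was positive in both sets on the protein-coding scale. All 8 were negative in set 045 on the TPM as deposited. Class II genes had 7 of 8 positive values in set 076, where class I members had 2 of 10, and whether the families differ was not tested.

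Between the sets, the lists moved in different directions on the protein-coding scale, while every gene of the lists named in this paragraph was higher in set 076 on the TPM as deposited. Of all genes tested 2.67% were called higher and 6.84% lower in set 076, and their median log2 difference was -0.27. All 11 other core subunits of the proteasome had positive log2 differences (median 0.73), and 4 were called higher in set 076: Psma1, Psma4, Psma2 and Psmb2. All 11 core subunits were also positive with median-of-ratios scaling. The 3 immunoproteasome members were negative. Of the loading and trimming genes, Bcap31 (1.15 ± 0.23 SE, adjusted p = 0.0265) and the trimming peptidase Erap1 (0.99 ± 0.16, adjusted p = 0.0148) were called higher in set 076. The heavy chains H2-Q7 (-1.03) and H2-Q4 (-0.99), and the regulators Stat2 (-1.53), a transducer of type I interferon signals, and Rfxap (-1.12), a subunit of the RFX complex, were called lower. Of the interferon gamma list 15 of 18 were negative, with none called lower and Ifngr1 called higher (1.26 ± 0.24, adjusted p = 0.0239). The genes named in this comparison were chosen after their values were seen, as all those called in their lists. The part of gene length in the differences of these lists was not tested. The summed smooth muscle markers, at 3577 to 4587 in set 076 against 555 to 959 in set 045, were higher in all 4 libraries of set 076, while those of macrophages overlapped.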

How the data were processed

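RNA from 8 arterial samples was depleted of ribosomal RNA from 100 ng of total RNA and sequenced from directional libraries, per the labels' protocols. The authors deposited 1 table of TPM, that is a share of transcripts after adjusting for length, by gene and library. The sources used here do not give the aligner, counting tool, annotation release or use of strand. The submitters' processing notes name hg19, a human genome, but identifiers in the table are Ensembl's for mouse. No column of values went unused. Column names give the group and set but no sample number, so each column was a replicate of its group.

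TPM was rescaled so that nuclear protein-coding genes (GENCODE M21) sum to 1000000 per library. Of 25386 genes above 0, 19705 gave whole reads from the TPM steps with the M21 length (relative tolerance 1e-05). The other 5681 got a length chosen so that the steps were whole (within 0.02 read), so their whole reads are no check. 18170 genes averaging at least 1 were tested two-sided by limma 3.58.1 (R 4.3.3) on log2(level + 1), with trended robust empirical Bayes and Benjamini-Hochberg adjustment. Such folds understate changes of low genes. There were 5 residual and 3.54 prior degrees of freedom. The fit was tested on simulated data, with planted changes larger than any member's log2 fold change for the antibody. That test does not show whether changes of the members' size would be found. Ratios were compared by exact permutation within sets. Alternatives covered scale, set term, pseudocount, filter, Bayes step, weights, limma-voom on the recovered reads and left-out libraries.

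The text names the 10 members, the genes called in a list or otherwise up to 4 of smallest p for the antibody, and the 5 genes nearest to the members' mean profile, among protein-coding genes with a mean of at least 10. The members and all lists were chosen with earlier results of these data known. Marker lists of dendritic cells, endothelium, fibroblasts, adipocytes, thymus and parathyroid were also summed.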

Additional observations from a re-analysis of the deposited data

Results flagged for a closer look

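4 values stood apart from the other 3 libraries of their set by Dixon's ratio at its 95% critical value, among 64 groups of 4 tested. Chance gives about 1 in 20 such groups. H2-D1 was at 1412 in antibody library D2IA of set 045 (ratio 0.871). Psmb8 was at 38.4 in IgG library G1IA of set 076 (ratio 0.926). Psmb9 was at 48.4 in antibody library D1IA of set 045 (ratio 0.942), and its ratio to Psmb6 was 0.483 in the same library (ratio 0.872). Both values of that library rest on few reads, 34 for Psmb9 and 36 for Psmb6. On the TPM as deposited Psmb9 was at 0.411 in that library, within the 0.295 to 0.575 of set 045.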

How the results depend on the processing

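No paired analysis was possible because the columns carry no sample number. No member was called for the antibody in any of 22 alternatives, and the members' median of -0.04 ran from -0.32 on TPM as deposited to 0.18 in set 045 alone. Each shift was below 0.318, the SD of the members' mean between replicate libraries of a group and set. That SD describes single libraries and is larger than the error of a difference between groups, so it does not show that the scale is without effect. Depth limits set 045 most, where Psmb9 had 25 to 48 reads. The cause of the changes below was not tested. Over all genes, the antibody comparison called 1 gene on TPM as deposited and 3 in set 076 alone. Signs of the members' log2 fold changes turned as follows. On TPM as deposited, with or without the set term, Tap1 was at -0.16, Psmb8 at -0.11, Psmb9 at -0.11 and Nlrc5 at -0.0407. With voom on recovered reads H2-K1 was at 0.0275, H2-D1 at 0.0385 and Tap1 at -0.0118. Library weights gave -0.066 for Tap1 and -0.0901 for Psmb9, and median-of-ratios scaling gave 0.0082 for Psmb10. Set 045 alone gave 0.11 for H2-K1, 0.17 for H2-D1, 0.087 for Tapbp and 0.19 for Psmb10. Set 076 alone gave -0.16 for Tap1, 0.0019 for Tap2, -0.22 for Psmb8 and -0.24 for Psmb9. Without the libraries with Xist reads Psmb8 was at -0.0062 and Psmb10 at 0.0875. Leaving out each library in turn gave -0.16 to 0.0398 for H2-K1, -0.18 to 0.13 for H2-D1, -0.37 to -0.0462 for B2m, -0.18 to 0.27 for Tap1 and -0.39 to 0.0777 for Tap2. It gave -0.20 to 0.0459 for Tapbp, 0.0787 to 0.43 for Psmb8, -0.19 to 0.40 for Psmb9, -0.33 to 0.20 for Psmb10 and -0.0325 to 0.50 for Nlrc5. The ratio differences turned to -0.47 (Psmb8 to Psmb5) and -0.25 (Psmb9 to Psmb6) in set 076 alone and to 0.29 (Psmb10 to Psmb7) in set 045 alone. With libraries left out they ran from -0.0334 to 0.88 for Psmb9 to Psmb6 and from -0.29 to 0.25 for Psmb10 to Psmb7. Adding 0.5 read to recovered reads, an alternative chosen after seeing the data, left the ratios' signs as they were. Between the sets, 4 members and 1729 genes were called. TPM as deposited called 10 members and 10898 genes, library weights 8 and 6040, no filter 1 and 913, no trend 1 and 773, and the libraries without Xist reads 2 and 407. Median-of-ratios scaling called 1 member. With libraries left out the counts ran from 0 to 3 members and from 145 to 3008 genes, the lowest without D1IA of set 076 and the highest without D1IA of set 045. On TPM as deposited the set differences turned positive: H2-K1 3.34, H2-D1 3.20, Tap1 1.37, Tap2 1.73, Tapbp 2.77, Psmb8 2.01, Psmb9 1.17, Psmb10 2.06 and Nlrc5 1.14. Adding 1 to each TPM before the log shrinks these differences most for genes with low TPM. With median-of-ratios scaling H2-K1 was at 0.13.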
